A study of Arabidopsis thaliana with 8 samples.

Results

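Histone H3 coverage was compared between a suspension cell culture and leaves of Arabidopsis thaliana, using the H3 library of each, 2 of the 8 ChIP-seq libraries of the study (sequencing of DNA recovered with an antibody). Leaf chromatin came from Col-0 plants of wild type raised on agar with MS medium. The culture is a Col-0 cell line kept in Gamborg's B5 medium with 3% sucrose, 3 mM MES and 1.1 mg/l of the synthetic auxin 2,4-D. It was passed to fresh medium at intervals of 7 d, and its cells were fixed for 15 min in 1% paraformaldehyde. The other 6 libraries are H3K4me3, H3K27me3 and H3K9me2 from the same sample types, and they served here as separate readings of the same places. The members are all 27213 protein-coding genes of the 5 nuclear chromosomes, ordered along each chromosome, together with the intergenic intervals and transposable elements between them. A single library was made for each sample type and antibody, so no difference here has a replicate check, and the intervals given cover counting error only.

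H3 is a core protein of every nucleosome, the unit on which DNA is wrapped, and an antibody against it recovers nucleosomal DNA whatever its modification. H3 coverage therefore serves as the reference for histone marks, and it follows both how much DNA of a region is present and how densely nucleosomes cover it. Plant cells in long culture are known, as a class, for changes in chromosome number and structure. No library of input DNA was used here, so the amount of DNA, the density of nucleosomes and the recovery of chromatin cannot be told apart in any value below.

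The leaf H3 library held 1449274 nuclear reads and the culture H3 library 3116646, and a median gene held 19 and 35 reads. Plastid and mitochondrial reads were 13.7% of the leaf H3 library and between 0.38% and 3.09% of the other 7. The labels of leaf and culture were checked on H3K4me3, a mark of active genes. RCA, the activase of Rubisco, had 361 H3K4me3 reads in leaf and 71 in the culture, and PSBO2, a photosystem II subunit, had 203 and 38. CDC45, a factor of replication forks, had 13 in leaf and 254 in the culture, and CYCA1;1, a cyclin, had 9 and 159. These directions are those of green tissue on one side and dividing cells on the other. The genes were chosen after their values were seen, so they illustrate the labels and do not test them. The counts are raw, from 2075647 nuclear reads in leaf H3K4me3 and 3476684 in culture H3K4me3.

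The value of a gene is the log2 of culture over leaf H3, with 1 read added to each count and each library scaled to 1000000 nuclear reads. The median gene stood at -0.29 on that scale (genes with at least 5 leaf reads), so values below are given relative to the median gene unless stated. A gene was called where it had at least 20 reads over both libraries, differed at least 2-fold and had a 95% counting interval that excluded no difference. On the nuclear-read scale 1166 genes were higher in the culture, 4.96% of the 23528 with enough reads, and 2408 were lower, 10.2%. Relative to the median gene 2027 were higher, 8.62%, and 1016 lower, 4.32%. The share of higher genes among those called thus went from 32.6% to 66.6% with the scale, and the order of genes along the scale did not change. Of the 23528 genes, 23301 had at least 5 leaf reads. The others passed the limit of 20 reads mostly through culture reads and could not be called lower. They are included in these counts.

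Genes next to each other had similar H3 values. Across the genome, Spearman's rho between a gene and the next was 0.47, between genes 20 apart 0.36 and between genes 100 apart 0.24. These are descriptions across genes that share the same 2 libraries, and genes are not replicates. The SD of all gene values was 0.74, and it was 0.52 after the median of the 10 genes on either side was taken away from each, against 0.41 from counting alone. Of the 2027 genes higher relative to the median gene, 1496 were within the call limits of their own neighbours, and so were 682 of the 1016 lower genes.

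The unevenness lay on the culture side. In 1032 windows of 100 kb with at least 8 genes, the level of H3 per length had an SD of 0.18 (log2) between windows in leaf and 0.55 in the culture. Only 3 leaf windows were at least 2-fold above the median window of their library and 0 were 2-fold below it, against 58 and 10 in the culture. The 3 leaf windows were those of chromosome 2 from 3200001 to 3500000, described further on. The same comparison in the other antibodies gave SDs of 0.39 in leaf and 0.64 in the culture for H3K4me3, 0.52 and 0.80 for H3K27me3, and 0.51 and 0.72 for H3K9me2.

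Window values of culture over leaf H3 ran from -2.60 to 3.40, with quartiles of -0.30 and 0.32. The highest were the window of chromosome 1 from 23300001 to 23400000 and that of chromosome 2 from 1000001 to 1100000, both at 3.40. The lowest was that of chromosome 2 from 3400001 to 3500000 at -2.60, followed by that of chromosome 4 from 300001 to 400000 at -1.82. 55 windows were at 1 or above and 10 at -1 or below. Chromosome 3 had no window below -0.58, while chromosome 4 had both a series of low windows near its left end and high windows in its right arm.

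**Figure D1:**
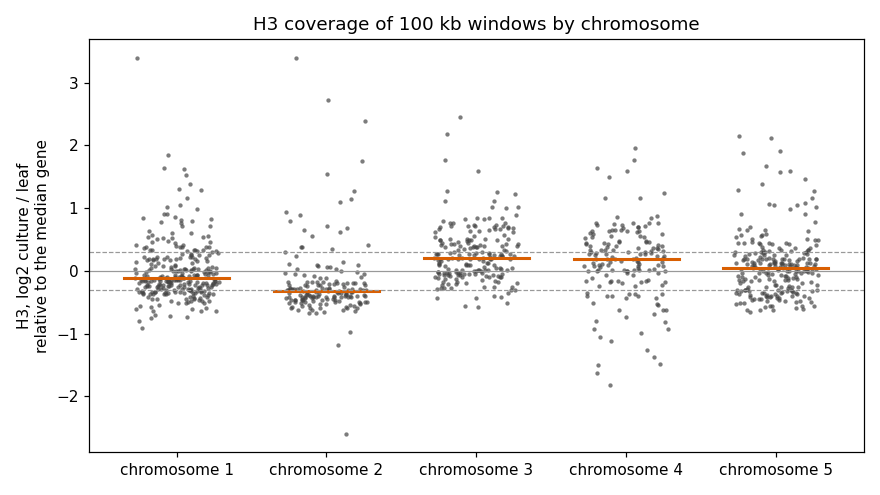
H3 coverage of 100 kb windows, as log2 culture over leaf relative to the median gene (vertical axis), for the 5 chromosomes (horizontal axis); each point is the median gene of a window, the orange bar the median window of the chromosome and the dashed lines the limits of 0.3 and -0.3. Points above 3 stand on chromosomes 1 and 2, and the lowest point, at -2.60, is on chromosome 2.

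By arm, the pericentromere of chromosome 3 (11 to 17 Mb, 428 genes) had the highest median gene, 0.68, and the left arm of chromosome 2 (0 to 1 Mb, 213 genes) had 0.63. The right arm of chromosome 2 (from 7 Mb on, 3119 genes) had the lowest, -0.39, and held 11.1% of nuclear H3 reads in leaf and 5.33% in the culture. With pooled reads of all intervals, leaving out those very dense in H3, the right arm of chromosome 2 stood at -0.74. The left arm of chromosome 4 (0 to 1 Mb, 250 genes) had a median of -0.05 that hides a wide spread, with quartiles of -1.12 and 0.65. Its first 400 kb were low and its end was high.

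Runs of at least 3 consecutive windows at 0.3 or above, or at -0.3 or below, were taken as segments. 26.3% of all windows passed the upper limit and 24.9% the lower. There were 34 high segments, 20.5 Mb with 4981 genes, and 24 low segments, 17.2 Mb with 4705 genes. Relative to the median gene, 1290 genes of the high segments were called higher and 14 lower, and 572 genes of the low segments were called lower and 5 higher. The segments were chosen on these values, so the counts describe them and test nothing.

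The longest high segment lay on chromosome 3 from 15500001 to 18200000, across the right side of the pericentromere, with 570 genes and a median of 0.79. ATM, the kinase that signals DNA breaks, was among its genes with the most reads. The highest median, 1.47, belonged to chromosome 4 from 11300001 to 11800000, whose 132 genes include NRPB2, a core subunit of RNA polymerase II, and ATML1, a regulator of epidermal identity. Chromosome 5 from 7300001 to 8800000 had a median of 1.16 over 354 genes, and 190 of them were called higher. Chromosome 1 had high segments from 10600001 to 11800000, at 0.93, and from 22900001 to 23500000, at 1.02.

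The longest low segments were shallow. Chromosome 2 from 8600001 to 11200000 had a median of -0.44 over 677 genes, among them PKL, a chromatin remodeller, and chromosome 5 from 23200001 to 25700000 had -0.45 over 736 genes, among them the blue-light receptor PHOT2. The deep ones were short and lay mostly on chromosome 4. Its first 400000 bases had a median of -1.28 over 112 genes, and the stretch from 2200001 to 2800000 had -1.12 over 116 genes, including DDB1A, a subunit of a ubiquitin ligase.

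The genes used to draw the segments also had values in 6 libraries that were not used. In 33 of 34 high and 23 of 24 low segments, the median gene lay on the same side in H3K4me3, H3K27me3 and H3K9me2 at once. With pooled reads in place of the median gene this held in 24 of 34 and 20 of 24. H3K9me2 is thin over genes, with a median of 3 reads in leaf and 7 in the culture. A gene with equal H3K9me2 counts, 0 and 0 included, comes to -1.14 relative to the median gene, and 1 culture read against 0 comes to -0.14. The median gene was at exactly -1.14 in 2 low segments and at -0.14 in 4, so there H3K9me2 says little about the side. Some high segments, such as chromosome 4 from 15600001 to 17100000, were at 0.45. That is the value of 2 culture reads against 0, so H3K9me2 is weak there too. Over all windows, 47% were above the median gene in H3K4me3, 49.1% in H3K27me3 and 47.8% in H3K9me2. The high exception was chromosome 3 from 19600001 to 19900000, where H3K9me2 was at -0.02. The low exception was chromosome 2 from 3200001 to 3500000, at -1.68 in H3, -0.31 in H3K4me3, 0.54 in H3K27me3 and -0.48 in H3K9me2.

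Across the 1032 windows, H3 values went with those of H3K4me3 (Pearson's r = 0.88, Spearman's rho = 0.84), H3K27me3 (0.85 and 0.83) and H3K9me2 (0.74 and 0.67). The points share their genes, and leaf and culture material may be shared between antibodies, so these are descriptions. Of the 55 windows at 1 or above in H3, 55 were above the median gene in H3K4me3, 55 in H3K27me3 and 54 in H3K9me2. Of the 10 windows at -1 or below, 10, 8 and 10 were below it.

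**Figure D2:**
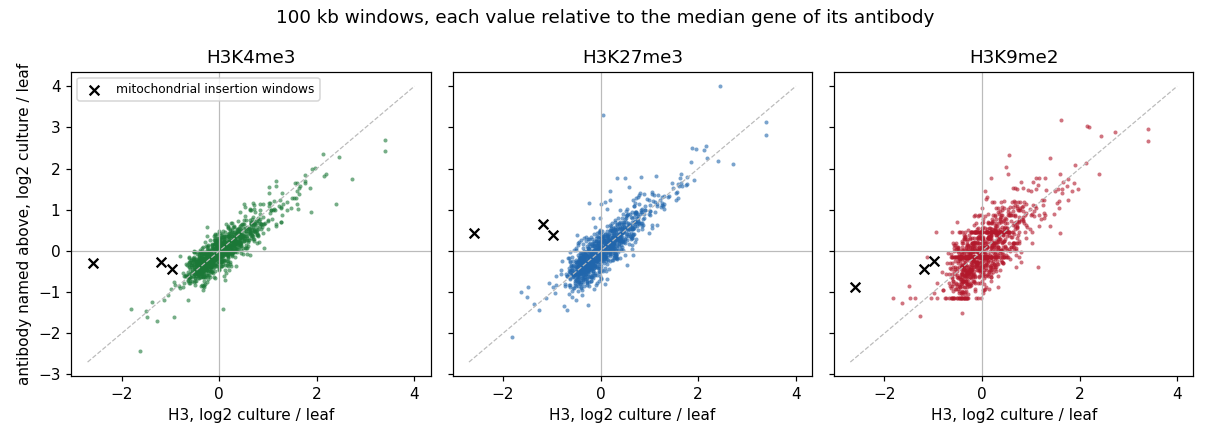
Each point is a 100 kb window, with H3 on the horizontal axis and H3K4me3, H3K27me3 or H3K9me2 on the vertical axis, both as log2 culture over leaf relative to the median gene of the antibody; the dashed line marks equal values. Points follow the dashed line in all 3 panels, with correlations (Spearman) of 0.84, 0.83 and 0.67, and the crosses mark the 3 windows of the mitochondrial insertion, low in H3 and not in H3K27me3.

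Intervals without genes were compared as well. Pooled reads of intergenic intervals, on the scale of the genes, lay on the same side as the genes in 25 of 34 high and 24 of 24 low segments. Pooled reads of transposable elements did so in 30 of 34 and 22 of 24. No genome-wide share on either side is given for these pooled reads, so the counts have no reference. Against the median interval of its own kind, the median intergenic interval lay on the same side in 32 of 34 and 24 of 24 segments. The median transposable element did so in only 14 of 34 high segments and in 23 of 23 low ones.

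Coverage also differed in steps at the scale of a few genes, inside segments and outside them. Blocks were drawn as runs of genes whose 5-gene running median was at 1.5 or above (2.39% of all such medians), or at -1 or below (1.65%), a rule set after the data were seen. There were 40 high blocks with 571 genes, 9.93 to 177.5 kb long, of which 9 lay on chromosome 1, 7 on chromosome 2, 4 on chromosome 3, 6 on chromosome 4 and 14 on chromosome 5. Their medians ran from 1.56 to 4.49. Together they held 1.84% of the gene reads of leaf H3 and 9.43% of those of culture H3. The 21 low blocks held 286 genes, with medians from -2.40 to -1.04, and 14 of them, with 206 genes, were on chromosome 4. They held 1.28% of gene reads in leaf and 0.35% in the culture. Of the high blocks 28 lay wholly inside a high segment and 11 wholly outside, and of the low blocks 16 lay inside a low segment and 3 outside.

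In leaf the high blocks looked like the rest of the genome. Their level of H3 per length, relative to the median gene of the library, had a median of -0.04 over the 40 blocks in leaf, from -0.52 to 0.47, and of 1.98 in the culture, where it reached 4.72. The lowest culture block was thus above the highest leaf block. The blocks were chosen on culture over leaf, so a gap of this kind follows largely from the rule and tests nothing. The medians of the 10 genes on either side of the high blocks ran from -0.45 to 1.84, so some blocks stood alone and others on a raised stretch.

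The highest block lay on chromosome 3 from 10976108 to 11013358, with 11 genes and a median of 4.49. Its peak was AAR3 (AT3G28970), a gene named for anti-auxin resistance of its mutant, with 8 reads in leaf and 1095 in the culture, or 5.52 and 351 per 1000000 nuclear reads. Relative to the median gene AAR3 was at 6.11, with a counting interval of 5.16 to 7.06. MYB110, a transcription factor gene, had 18 and 947 reads (4.82), and EXPA5, an expansin that loosens cell walls, had 26 and 1104 (4.54). Both edges were abrupt. On the left AT3G28940 had 9 reads in leaf and 17 in the culture (0.03) and its neighbour in the block, AT3G28950, had 14 and 391 (3.89). On the right EXPA5 was the last gene of the block, and the next gene, AT3G29033, had 19 and 44 reads (0.35). The block was at 3.33 in H3K4me3, 4.54 in H3K27me3 and 4.33 in H3K9me2. Its 25 intergenic intervals held 72 reads in leaf H3 and 2934 in culture H3.

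On chromosome 1 from 23318187 to 23410815, 22 genes had a median of 3.63. NRPD1A, the largest subunit of RNA polymerase IV, which makes the precursors of small RNAs in DNA methylation, had 64 leaf and 2236 culture reads (4.29, 3.93 to 4.64). KNAT7, a homeobox regulator of secondary walls, had 25 and 497 (3.44), EXPA18, an expansin of root hairs, had 19 and 455 (3.69), and NRS/ER, an enzyme of rhamnose synthesis, had 8 and 400 (4.66). RBL2, the rhomboid-like gene at the right end of the block, had 17 and 55 reads (0.82), although AT1G63110 beside it had 35 and 594 (3.23). In this block the median was 2.80 in H3K4me3, 3.28 in H3K27me3 and 3.25 in H3K9me2.

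A second block on chromosome 1, from 16923543 to 16974641, stood alone, with 6 genes and a median of 3.13. The 10 genes to its left had a median of -0.15 and the 10 to its right -0.20. It ends in MCM2, a subunit of the helicase that opens DNA at replication, with 51 reads in leaf and 417 in the culture (2.19, 1.77 to 2.60). The genes on either side of the block, SIAR1 (an amino acid transporter, 27 and 29 reads) and PRP40A (a pre-mRNA processing factor, 83 and 107), were at -0.72 and -0.46. MCM2 ends at 16974641 and PRP40A starts at 16975604, so these values belong to genes next to each other.

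Near the left end of chromosome 2, from 993756 to 1098826, 33 genes had a median of 3.35. Reads in AT2G03260, outside, were 38 in leaf and 103 in the culture (0.60), and in AT2G03270, the first inside, 25 and 447 (3.29). Further in, values were higher still at PAP9, a purple acid phosphatase gene (21 and 1113 reads, 4.84), and UPS2, a ureide permease gene (6 and 547 reads, 5.47, 4.40 to 6.55). The other ureide permease genes of the block were also high, UPS4 at 4.06, UPS3 at 2.68 and UPS1 at 1.78, and such related copies may share reads. Within the block the short genes AT2G03565 and AT2G03570 had 4 leaf reads each, too few to be used.

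**Figure D3:**
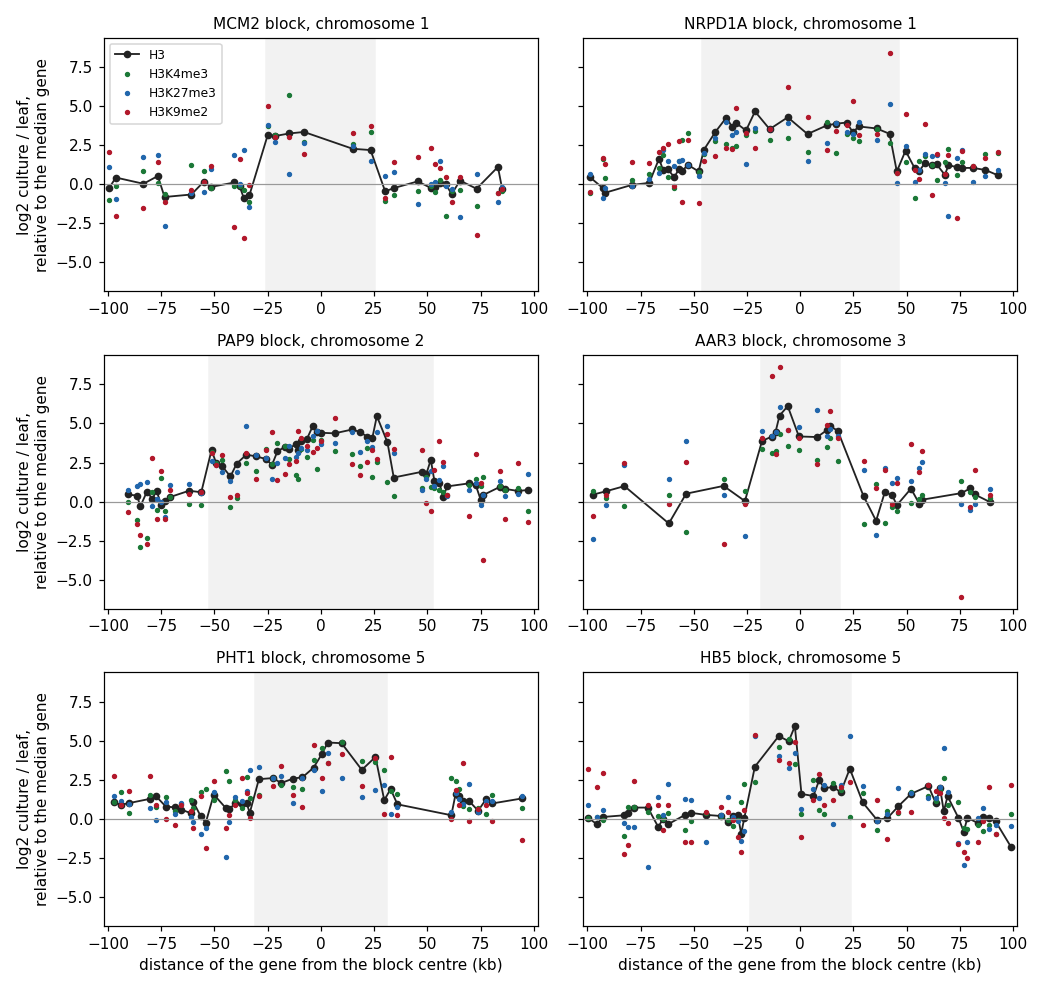
Genes within 100 kb of the centre of 6 high blocks (distance in kb on the horizontal axis), as log2 culture over leaf relative to the median gene of each antibody (vertical axis); black points joined by a line are H3, coloured points H3K4me3, H3K27me3 and H3K9me2, and grey marks the block. Between adjacent plotted genes H3 goes from -0.72 to 3.17 at the left edge of the MCM2 block and from 2.19 to -0.46 at its right. In the AAR3 block it goes from 0.03 to 3.89 on the left and from 4.54 to 0.35 on the right. The other antibodies follow H3.

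On chromosome 5 from 17360287 to 17421982, 13 genes with a median of 2.90 included the PHT1 cluster, which encodes root phosphate transporters. PHT1;1 had 32 reads in leaf and 1674 in the culture (4.85, 4.35 to 5.34), PHT1;6 had 21 and 1151 (4.89), PHT1;2 had 24 and 689 (3.97) and PHT1;3 had 18 and 294 (3.14). The PHT1 genes are near-identical in parts, and how reads mapping to several places were counted is not given in the sources used here, so their separate values are uncertain. The neighbour c-NAD-MDH2, a malate dehydrogenase gene and no transporter, had 41 and 1301 reads (4.14).

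On chromosome 5 from 26089556 to 26137183 values differed widely inside the block. HB5, a homeobox gene, had 28 leaf and 2021 culture reads (5.31), and AGL78, a MADS-box gene, had 17 and 1940 (5.93, 5.26 to 6.60). The next gene, AT5G65340, had 5 and 31 (1.60), and HTR11, a histone H3-related gene, had 7 and 38 (1.47). Left of the block GCL1 was at 0.03, with 29 and 53 reads. On chromosome 3 from 7906791 to 8052260, the 45-gene block likewise held a narrow peak. TIC (TIME FOR COFFEE, a clock gene) had 97 reads in leaf and 5845 in the culture (5.08, 4.79 to 5.37), and LOX5, a lipoxygenase gene, had 60 and 2993, 27.8-fold higher. AOX1A, an alternative oxidase gene at the edge of the block, had 22 and 193 (2.26), and AOX1B, a gene further out, had 8 and 20 (0.40).

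Further high blocks held known genes at lower values. On chromosome 1 the block from 11128732 to 11253915, at 1.89, included AGO2 (45 and 443 reads, 2.45) and AGO3 (66 and 623, 2.40), Argonaute genes that bind small RNAs, and PSAF, a photosystem I subunit (21 and 582, 3.91). On chromosome 5 the block from 8339144 to 8516669, the longest of the high ones, was at 2.20 and included PRR5, a clock regulator (40 and 334, 2.21), TTG1, needed for trichomes (31 and 208, 1.89), and BIN4, of a topoisomerase VI complex needed for endoreduplication (45 and 640, 2.98). On chromosome 4 the block from 11456230 to 11601577 included NRPB2 (69 and 595 reads, 2.27) and ATML1 (54 and 346, 1.84). Blocks on chromosome 2 held the cytokinin receptor gene WOL (48 and 290, 1.75), the sodium exchanger gene SOS1 (68 and 398, 1.71) and the chlorophyll-binding protein genes LHCB2.1 (16 and 92, 1.63) and LHCB2.2 (12 and 99, 2.13).

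Low blocks at the left end of chromosome 4 numbered 4, among them the lowest of that chromosome. From 283914 to 363691, 20 genes had a median of -2.03. LIF2, whose product binds the Polycomb protein LHP1, had 36 reads in leaf and 8 in the culture, or 24.8 and 2.57 per 1000000 nuclear reads (-2.86, -3.91 to -1.81). ANL2, a homeobox gene of epidermis and root, had 56 and 17 (-2.48), APRR8, a pseudo-response regulator gene, had 59 and 17 (-2.56), and SETH5 had 89 and 37 (-2.06). The block ended between AT4G00870 (15 and 7 reads, -1.82) and AT4G00880, the next gene but one (5 and 14 reads, 0.50), and the 10 genes on its right had a median of 0.28.

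Between this block and the chromosome end lay the other 3, from 11355 to 105217 at -1.51, from 122851 to 231699 at -1.34 and from 261449 to 280699 at -1.18. They held IND, which shapes the margin of the fruit valve (15 and 8 reads, -1.65), YAB3, of leaf polarity (18 and 15, -1.07), RPS13A, a ribosomal protein gene (22 and 6, -2.53), CYP86A2, a fatty acid hydroxylase of cutin (40 and 13, -2.37), and FRI, a regulator of flowering time (33 and 28, -1.05). Further along the same chromosome, from 2166973 to 2506786, the longest block held 50 genes at -1.48. CRK36, a receptor-like kinase gene, had 41 leaf and 15 culture reads (-2.21), and CPK23, a calcium-dependent kinase gene, had 48 and 15 (-2.43). CPK21, CPK22, CPK27 and CPK31 beside it were between -1.86 and -1.35.

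A low block of another kind lay on chromosome 2 from 3311654 to 3503476, with 43 genes and a median of -2.40. Near this place the nuclear chromosome is known to carry a large copy of mitochondrial DNA. Here leaf was the side that stood apart. Its H3 level per length was 2.43 above the median gene of the leaf library, and that of the culture was 0.20 above its own. The block was at -0.30 in H3K4me3, 0.58 in H3K27me3 and -0.75 in H3K9me2. The mitochondrial chromosome itself held 25891 reads in the leaf H3 library and 10872 in the larger culture H3 library, and the part of such reads in this result was not tested. ABCI4, just left of the block, had 178 and 163 reads (-0.94), and MCM5, a replication helicase gene to the right, had 34 and 86 (0.50).

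The other antibodies, which the rule had not used, had high values in most of the high blocks. The block median was above the median gene in 39 of 40 blocks for H3K4me3, in 40 for H3K27me3 and in 40 for H3K9me2. Of all 5-gene running medians, 48.6%, 48.8% and 48.7% were above it in these antibodies. Blocks at least 2-fold above the median gene numbered 34, 39 and 38. Of all 5-gene running medians, 6.4%, 8.64% and 15.7% were that high, although a block median can rest on more genes. The exception was the CYP71A22 to CYP71A26 cluster of cytochrome P450 genes on chromosome 3, at 1.56 in H3 and -0.34 in H3K4me3. There CYP71A22 had 18 and 98 H3 reads (1.56) and CYP71A23 16 and 96 (1.69), and such related copies may share reads.

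The 21 low blocks were drawn at a limit nearer 0, so their counts cannot be set against those of the high blocks. H3K4me3 was below the median gene in 21, H3K27me3 in 18 and H3K9me2 in 17, against 51.4%, 51% and 50.7% of all 5-gene medians. It was at least 2-fold below in 9, 10 and 8 blocks, against 4.4%, 6.76% and 16% of those medians. For H3K9me2, 6 of these blocks had a median of exactly -1.14, the value of equal counts, so its 2-fold count there rests on genes with few reads. The LIF2 block was at -2.48 in H3K4me3, -2.25 in H3K27me3 and -1.14 in H3K9me2, where its genes held 72 reads in leaf and 59 in the culture. Intergenic reads inside the blocks lay on the same side as the genes in 40 of 40 high and 21 of 21 low blocks. Reads of transposable elements did so in 35 of 35 and 14 of 14 blocks that had any such reads in both libraries. Against the median element of the genome, the median element lay on that side in 25 of 31 high and 9 of 9 low blocks. For the pooled reads in blocks no genome-wide share on either side is given, so their counts have no reference.

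**Figure D4:**
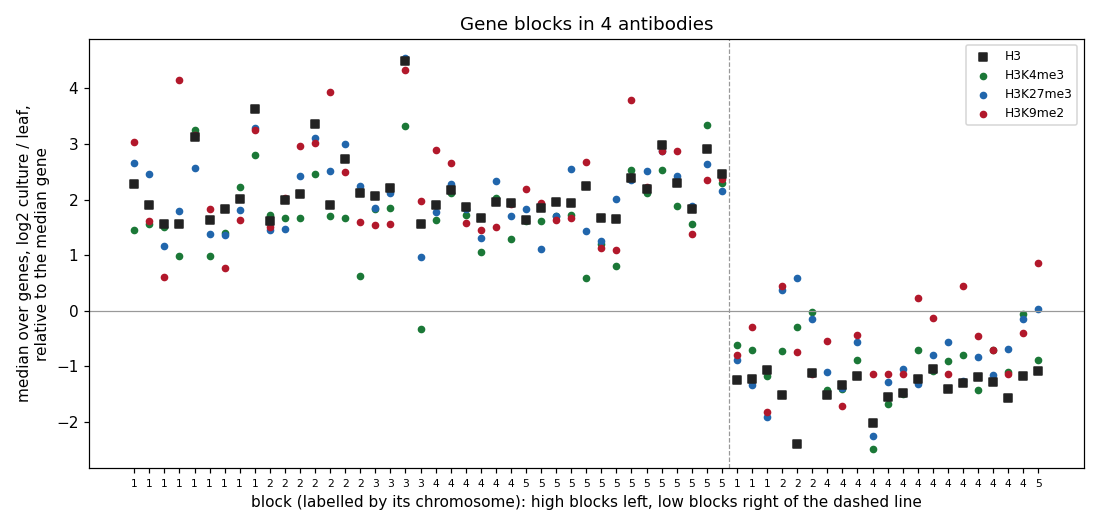
Median over genes of each of the 40 high blocks (left of the dashed line) and 21 low blocks (right), as log2 culture over leaf relative to the median gene (vertical axis), for H3 (black squares) and the other 3 antibodies (coloured circles); numbers under the axis are chromosomes. Circles lie above 0 in the high blocks, apart from H3K4me3 at -0.34 in a block of chromosome 3, at distances from the squares that reach more than 1. In the low blocks most circles lie below 0, and those of the mitochondrial insertion on chromosome 2 stand far above its square at -2.40.

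Ranked by the end of the counting interval nearer 0, the 10 highest genes with a symbol were AGL78, AAR3, TIC, HB5, CHX9, LOX5, UPS2, PHT1;1, PHT1;6 and PAP9. All but CHX9 were in the blocks described. CHX9, a cation/proton exchanger gene on chromosome 5, had 36 leaf and 2169 culture reads (5.06, 4.59 to 5.52), and the adjacent exchanger gene CHX3 had 31 and 1450 (4.68). By the rule no block was drawn there. The 10 genes on either side of CHX9 had a median of 1.21, so it was 3.85 above its neighbours.

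The 10 lowest were of 2 kinds. LIF2, APRR8, ANL2, SETH5, CPK23 and CYP86A2 came from the low blocks of chromosome 4. MEE27, ACS2, TPPI and PUX3 were instead genes with exceptional reads in leaf, more than 20 times the H3 per kb of the median gene. Their reads in the culture were also far above the 35 of its median gene. How reads mapping to several places were counted is not given, and the part of such reads in these values was not tested. MEE27, a histone demethylase gene, had 6211 leaf and 1943 culture reads (-2.49, -2.57 to -2.42), TPPI, a trehalose phosphate phosphatase gene, had 4580 and 1469 (-2.46), ACS2, an enzyme of ethylene synthesis, had 1626 and 493 (-2.54) and PUX3 had 799 and 346 (-2.02). These differed from the block genes in H3K9me2, which was higher in the culture, with 298 leaf and 4629 culture reads in MEE27 and 218 and 3716 in TPPI. In H3K4me3 they were low like the block genes, from -2.32 at ACS2 to -1.18 at PUX3. The block genes ran there from -3.59 at ANL2 to -0.51 at CPK23. The 10 genes on either side had medians of -0.49 at MEE27, -0.24 at TPPI and -0.41 at ACS2, and of 1.99 at PUX3, which lay 4.01 below them.

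Against the median of the 10 genes on either side, 561 of 23301 genes were called higher, 2.41%, and 569 lower, 2.44%. Among those with a symbol, AAR3 led the higher ones, 5.11 above its neighbours, and AGL78 (4.68), HB5 (4.05), MYB110 (3.91), CHX9 (3.85) and EXPA5 (3.70) came next. Among the lower ones, CIPK25, a protein kinase gene inside a high stretch of chromosome 5, had 22 leaf and 42 culture reads. At 0.08 it was at the level of the median gene, and 2.16 below its neighbours. RBL2 at the end of the NRPD1A block was 1.86 below its neighbours.

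The gene lists were read against the shares of all genes called, 8.62% higher and 4.32% lower relative to the median gene. The median of all genes with enough reads was 0.04. Of 22 genes of cell cycle and DNA replication, 5 were higher and 0 lower, with a median of 0.49, and on the nuclear-read scale 3 were higher and 2 lower. The higher members were MCM2 (2.19), CDKB2;1 (7 and 53 reads, 1.94), CDC45 (19 and 91, 1.38), MCM7 (48 and 192, 1.16) and CDKB1;1 (11 and 45, 1.12), which are replication factors and cell-cycle kinases. MCM2 lay in its isolated block, while MCM7, CDC45 and CDKB1;1 lay in high segments, at -0.17, 0.27 and 0.70 against their neighbours. MCM3, MCM5 and PCNA1 were between 0.04 and 0.54 and were not called, and the lowest member of the list was at -0.90. Against their neighbours 2 members were called higher and 0 lower, beside 2.41% and 2.44% of all genes. High and low segments held 5 members each, beside 18.3% and 17.3% of all genes.

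Of 23 photosynthesis genes, 2 were higher and 0 lower relative to the median gene, with a median of 0.00, and on the nuclear-read scale 2 were higher and 2 lower. The higher ones were LHCB2.1 and PSAF of the blocks above. Related copies such as LHCB2.1 and LHCB2.2 may share reads. PSAN and PSBW had too few reads for a call. The lowest member, LHCB5, had 22 and 21 reads (-0.88). Of the genes used to check the labels, PSBO2 had 23 and 39 H3 reads (-0.08), and RCA had 40 and 52 (-0.45).

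Of 11 genes of seed storage and late embryogenesis, 4 were higher and 0 lower, with a median of 0.50, and 3 were higher on the nuclear-read scale. SESA2 (10 and 48 reads, 1.34) and SESA3 (10 and 67, 1.81), adjacent genes of 2S albumins, and CRC, a cruciferin (29 and 111, 1.08), lay in a high segment of chromosome 4. OLEO1, of oil bodies, had 8 and 48 (1.63). The SESA genes are a tandem family whose copies may share reads.

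Of 16 NLR immune receptor genes 1 was higher and 0 lower, with a median of 0.34, and the higher one was RPP2A (47 and 441 reads, 2.38) in a block of chromosome 4. Of 17 genes of floral organ identity and flowering 0 were higher and 1 lower, with a median of -0.43, and that was SHP2 (29 and 24, -1.08). Of 15 housekeeping genes 0 were higher and 1 lower, with a median of -0.04. UBQ10, a polyubiquitin gene often used as a reference, was the lower one, with 44 reads in leaf and 33 in the culture (-1.22). It lies in the low segment of chromosome 4 from 2200001 to 2800000 and was at -0.45 against its neighbours. On the nuclear-read scale the counts higher and lower were 1 and 1 for the NLR genes, 0 and 3 for the floral genes and 0 and 2 for the housekeeping genes.

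**Figure D5:**
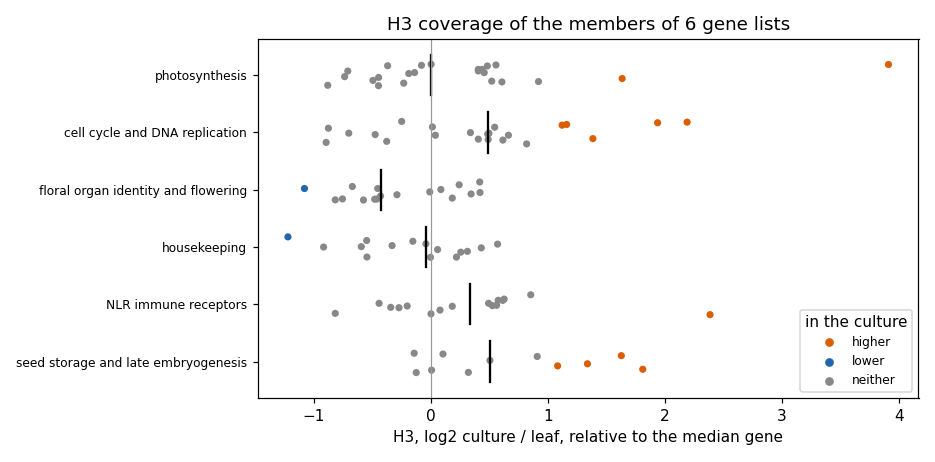
H3 of the members of 6 gene lists, as log2 culture over leaf relative to the median gene (horizontal axis); each point is a gene with enough reads, orange where called higher, blue where called lower and grey where neither, and the black bar is the list's median. PSAF stands apart at 3.91, and the lists' medians lie between -0.43 and 0.50.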

How the data were processed

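Each deposited file gives raw read counts, as whole numbers, over 109972 intervals (genes, transposable elements, intergenic stretches, plastid and mitochondrion). The submitters' processing notes name Bowtie2, bedtools and TAIR10, without versions. The sources used here do not give read length, duplicate handling, the treatment of reads with several places or the fixation of leaf. Coordinates are as in the files. Symbols came from the RefSeq annotation, by locus (26726 of 27213 genes were found and 10383 had a symbol).

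A pseudocount of 1 was added and each H3 count divided by the library's nuclear reads, times 1000000. Intervals (95%) are Poisson approximations on the log scale. Window, segment and pooled values were computed with Python 3.11.15, numpy 2.4.6, pandas 2.3.3 and scipy 1.17.1. Gene calls, windows and segments were checked on simulated counts. Pooled values, blocks and values against neighbours were not checked in this way. With 1 library a side, no test was run and no p-value is given. An interval was taken as very dense in H3 where leaf H3 per kb exceeded 20 times the gene median (2070 intervals, 25 of them protein-coding genes, with 26.9% of leaf and 24.9% of culture reads). Genes with fewer than 5 leaf reads were left out of windows, segments and blocks. GC content was planned as a class of genes and was not used here.

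Members, windows and lists were chosen with earlier results of these data known. Named genes are the 10 highest and 10 lowest called genes with a symbol, genes with the most reads in segments, and list members. Block genes, block edges, genes set against their neighbours and the label check were chosen after their values were seen.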

Additional observations from a re-analysis of the deposited data

How the results depend on the processing

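Of 68 values recomputed under other settings or definitions, 50 stayed within the limits set and 18 moved. Nearly all are counts, which have no direction, and the 2 arm values kept their sign. The balance of calls turned with the scale, from more genes lower to more genes higher. Genes higher in the culture numbered 1166, and 2027 relative to the median gene, 764 with a pseudocount of 5 and 515 with a 3-fold limit. Genes lower numbered 2408, and 1016 relative to the median gene, 925 with at least 50 reads and 478 with a 3-fold limit. Genes in high segments went from 4981 to 2565 at a limit of 0.5. The number of high segments went from 34 to 18 and of low segments from 24 to 9 at that limit, and low segments numbered 40 on intergenic intervals. Genes in low segments went from 4705 to 954 at that limit and to 2730 in 50 kb windows. The right arm of chromosome 2 was at -0.39 for the median gene and -0.74 for pooled reads without the intervals very dense in H3. High segments with transposable elements on the same side went from 30 to 14 on the scale of their own kind. Genes in low blocks with at least 5 leaf reads went from 267 to 172 with a pseudocount of 5 and to 176 among genes that overlap no other interval, and the number of low blocks from 21 to 12 among the latter and to 13 with a running median of 9 genes, all settings chosen after the data were seen. The cause of these moves was not tested beyond what each setting itself removes. Depth limits single genes, above all in the low blocks, where the culture gave few reads per gene. No paired analysis was possible because each group has a single library. For the same reason no replicate could be left out.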

Other observations

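Genes were also split into 4 equal classes by length and by their leaf levels of the marks, and the medians of their H3 values against the 10 neighbours on either side were compared. From the lowest to the highest class of leaf H3K27me3 per kb, the median went from -0.08 to 0.09, and from the lowest to the highest class of leaf H3K4me3 it went from 0.07 to -0.07. From the shortest to the longest class of genes it went from -0.02 to 0.07, and for leaf H3K9me2 from -0.04 to 0.06. These are descriptions over 5825 or 5826 genes each, and the SD of genes against their neighbours was 0.52. Over all 23301 genes, 561 were called higher than their neighbours, 2.41%, and 569 lower, 2.44%. From the lowest to the highest class of leaf H3K27me3, genes called higher than their neighbours went from 74 to 228 and genes called lower from 196 to 148. The share called higher relative to the median gene of the genome went from 5.75% to 11.6%, beside 8.62% of all genes with enough reads. For leaf H3K4me3, genes called higher than their neighbours went from 171 to 115 and genes called lower from 139 to 209. High segments held between 17.7% and 21.4% of the genes of every class in these 4 splits.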
